A study of Mus musculus with 10 samples.

Results

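The genes described here are 9 transcription factors known for setting up the first lineages of the mouse embryo: Sox2, Pou5f1, Nanog, Klf4, Klf5, Eomes, Cdx2, Tfap2c and Tead4. Their members on the array were found by name, as every probe set whose only gene symbol in the platform annotation is one of these 9, which gave 17 probe sets for 9 genes out of 18193 genes with a probe set of a single symbol. Signals came from mouse GV (germinal vesicle) oocytes, which are grown and held in prophase of meiosis I, with 5 arrays for the wild type and 5 for CTCF-depleted oocytes. CTCF is a DNA-binding factor known for insulator activity and for shaping chromosome loops. How CTCF was depleted, the strain and age of the animals, the number of oocytes in a sample and whether replicates came from separate animals are not stated in the labels. The p-values therefore rest on the spread among these 10 samples, and that spread may be technical. GEO's free-text description is the same for both groups, and the groups were taken from the titles.

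In the preimplantation embryo, Sox2, Pou5f1 (which encodes OCT4) and Nanog form the core of the pluripotency network of the inner cell mass, where SOX2 and OCT4 bind neighbouring sites as a pair. Klf4 and Klf5 encode zinc finger factors of the same network that bind GC-rich sites. The outer cells become the trophectoderm, the first layer of the placenta. There TEAD4, with the cofactor YAP1 that the Hippo pathway holds back in inner cells, drives Cdx2, and Cdx2, Eomes and Tfap2c (which encodes the AP-2 gamma factor) maintain trophoblast identity. The oocyte precedes both lineages, and it stores some of these factors' transcripts for the embryo.

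Of the pluripotency and trophectoderm factors, Sox2 rose 2.09-fold in CTCF-depleted oocytes, and Eomes fell, at low signals that were above background on 5 of 5 wild type arrays and on 1 of 5 depleted arrays. Pou5f1, Klf4 and Tfap2c transcripts were measured on every array and did not pass the test. Cdx2 and Klf5 lay near background and did not pass either, and Nanog and Tead4 were too dim to be tested. "Background" here is the highest signal among 27 control probe sets for Bacillus transcripts, which mouse RNA lacks, taken on each array and between 4.75 and 10.9. This level was chosen with earlier results of these data known. On that measure 7 probe sets, of Sox2, Pou5f1, Klf4 and Tfap2c, were above background on all 10 arrays, 6 on some arrays and 4 on none. On a single array between 49.4% and 62.9% of all probe sets were above background, so lying above it is not particular to these genes. Of the 17 probe sets, 11 (of 7 genes) passed a filter on low mean signal and were tested with limma, and p-values were adjusted by Benjamini-Hochberg across the 27022 probe sets that passed. A probe set is called where its adjusted p is under 0.05. Of the 11, 1 was called higher and 1 lower, against a background in which 12.6% of all tested probe sets were called, 5.48% higher and 7.12% lower. The median log2 fold change of the 11 was -0.064, and over all tested probe sets it was -0.021. Eomes, the lower one, and Cdx2 passed the filter only through their wild type signal, which limits this count and median. Without the filter 2 member probe sets were called as well. With 2 called of 11, the share is no result about these genes as a group.

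**Figure D1:**
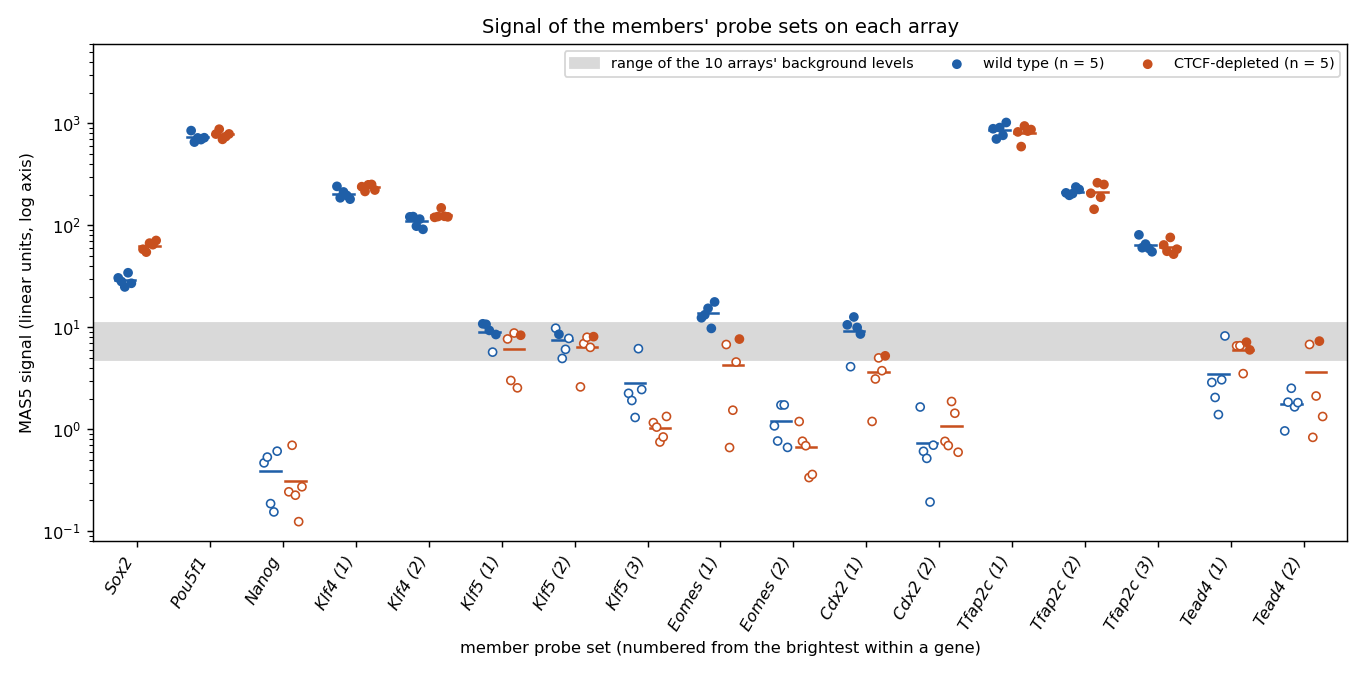
MAS5 signal (log axis) of each of the 17 member probe sets on the 5 wild type arrays (blue) and the 5 CTCF-depleted arrays (orange), with the group mean as a bar; filled points lie above that array's own background level, and the grey band spans those levels, from 4.75 to 10.9. Sox2 shows no overlap between the groups and is filled throughout, while Eomes (1) is filled on 5 wild type arrays and on 1 depleted array.

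The labels were checked with the targeted transcript and with markers of cell types. Ctcf signal on its brighter probe set was between 898 and 1071 on wild type arrays and between 16.7 and 95.8 on depleted arrays, depleted replicate 5 being the highest of these. All 15 oocyte markers, such as Zp3 and Gdf9, were above background on all 10 arrays. Of 18 granulosa and cumulus cell markers with a probe set, 10 were above background on all 10 arrays and 2 (Tnfaip6 and Wt1) on none, and their summed signal was 1554 on wild type replicate 2, between 636 and 721 on the other wild type arrays and between 620 and 826 on depleted arrays. Of the 16 that were tested, 2 were called higher and 0 lower, with a median log2 fold change of -0.13. At 12.5% called they were near the 16.4% of all tested genes that were called. Fshr, the receptor for follicle-stimulating hormone, rose from 23.2 ± 6.69 (SD, n = 5) to 47.8 ± 5.75 (limma, Benjamini-Hochberg adjusted p = 0.00107). Ptgs2, a prostaglandin synthase, rose from 4.11 ± 1.57, above background on 0 wild type arrays, to 15.0 ± 3.81 (adjusted p = 0.000809). The Ptgs2 wild type mean alone was under the filter's signal of about 5.13, so Ptgs2 was tested only because of its depleted signal. Of 14 blood, immune and endothelial markers, 4 were above background on all arrays and 2 (Ptprc and Cd14) on none. Their summed signal ran from 171 to 237 in wild type and from 169 to 211 in depleted oocytes. None of the 8 that were tested was called, with a median of -0.097, the brightest being Pecam1 (log2 fold change 0.19) and Kdr (-0.15). With 16.4% of all tested genes called, 0 of 8 says little. The parts of the Fshr and Ptgs2 rises in any result below were not tested. In such bulk RNA samples, fewer cells of a type and less RNA per cell cannot be told apart.

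The start-site regions of 4 of these genes are shown, 1 that rose (Sox2), 1 that fell (Eomes), 1 that was bright and not called (Pou5f1) and 1 that was above background on no array (Nanog). Each is the 250 bases before the most upstream RefSeq start, 5′ to 3′ on the gene's strand in GRCm38.p6: Sox2 at chr3:34649745-34649994 (plus strand), Eomes at chr9:118477939-118478188 (plus), Pou5f1 at chr17:35505782-35506031 (plus) and Nanog at chr6:122707239-122707488 (plus). Capitals mark, on either strand, the GC box GGGCGG that KLF and SP proteins bind, the octamer core ATGCAAA that POU proteins bind and the core CATTGT that SOX proteins bind.
Sox2: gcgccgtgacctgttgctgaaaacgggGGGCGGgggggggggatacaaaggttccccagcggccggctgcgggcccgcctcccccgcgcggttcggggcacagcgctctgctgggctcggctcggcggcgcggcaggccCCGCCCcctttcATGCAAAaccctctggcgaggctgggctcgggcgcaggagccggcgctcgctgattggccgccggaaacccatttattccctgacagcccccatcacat
Eomes: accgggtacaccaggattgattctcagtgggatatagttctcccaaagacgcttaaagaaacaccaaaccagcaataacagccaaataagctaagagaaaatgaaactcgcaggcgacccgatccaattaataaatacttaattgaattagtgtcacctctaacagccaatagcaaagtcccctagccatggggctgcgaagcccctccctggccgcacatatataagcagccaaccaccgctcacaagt
Pou5f1: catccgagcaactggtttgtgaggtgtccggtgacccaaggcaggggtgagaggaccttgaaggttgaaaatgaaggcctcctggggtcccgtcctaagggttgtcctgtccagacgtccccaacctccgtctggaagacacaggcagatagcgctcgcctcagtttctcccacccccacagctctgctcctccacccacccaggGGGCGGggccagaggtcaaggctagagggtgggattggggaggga
Nanog: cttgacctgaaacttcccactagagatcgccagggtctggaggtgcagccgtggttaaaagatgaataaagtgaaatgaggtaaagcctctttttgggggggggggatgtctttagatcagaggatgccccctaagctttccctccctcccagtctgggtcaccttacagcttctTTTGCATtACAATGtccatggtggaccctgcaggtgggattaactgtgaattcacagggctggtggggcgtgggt

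The Sox2 window held 2 GC boxes and, 99 to 93 bases before the start, 1 octamer core, and the Pou5f1 window held 1 GC box. In the Nanog window an octamer core, 75 to 69 bases before the start, stood beside a SOX core at 67 to 62, the only SOX core in the windows of the 6 members examined. The Eomes window held none of these letters. Among the others, the Klf4 window held 4 GC boxes, 2 of them sharing a base, and the Cdx2 window 1 octamer core. No start-site window was available for Klf5, Tfap2c and Tead4 in the sequences used here. Over 27025 promoter windows of the same length, 1 for each gene, 33.0% held a GC box, 4.07% an octamer core, 10.9% a SOX core and 0.666% both of the last. A core that CTCF binds, GGNGGCAG, was in 0 of the 6 windows and in 9.62% of all, the TEAD core CATTCC in 0 of the 6 and 12.6% of all, and the AP-2 core GCCNNNGGC in 2 of the 6 (Klf4 and Cdx2) and 13.5% of all, each on both strands. These matches describe letters in a short window and nothing about binding.

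Sox2 encodes the HMG-box partner of OCT4, and it was the member with the clearest difference. On its single probe set (1416967_at) the signals in wild type replicates 1 to 5 were 30.5, 28.1, 24.8, 34.2 and 27.0, and in depleted replicates 1 to 5 they were 58.2, 54.6, 66.8, 64.6 and 70.9. Every depleted array was above every wild type array, and all 10 were above background. Groups that do not overlap, with the depleted group higher, were seen in 4.69% of all tested probe sets. The mean rose from 28.9 ± 3.59 (SD, n = 5) to 63.0 ± 6.61, which is 218% of wild type. On the log2(signal + 2.47) scale the fold change was 1.06 ± 0.12 (SE), or 2.09-fold with a 95% interval of 1.74 to 2.51 (limma, Benjamini-Hochberg adjusted p = 1.97e-05). Without wild type replicate 2, the array with the high granulosa marker signal, the log2 fold change was 1.05, and without depleted replicate 5, the array with the most Ctcf signal left, it was 1.02. The second array-wide measure checked, the ratio of 3-prime to 5-prime control signal, ran from 6.96 to 8.65 in wild type and from 6.07 to 7.76 in depleted oocytes, and with that ratio in the model the value was 1.05.

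Pou5f1, whose product OCT4 is present from the oocyte onwards, had a bright probe set (1417945_at) whose groups overlapped. Wild type replicates 1 to 5 read 848, 655, 719, 692 and 722, and depleted replicates 784, 876, 697, 741 and 787. Wild type replicate 1 and depleted replicate 2 were the highest arrays of their groups, and the lowest wild type array, at 655, lay below every depleted array. The means were 727 ± 72.8 (SD, n = 5) and 777 ± 66.3, and the log2 fold change was 0.10 ± 0.07 (SE; limma, Benjamini-Hochberg adjusted p = 0.460). Its 95% interval, 0.960-fold to 1.19-fold, does not reach the size of the Sox2 rise. The difference between the changes in Sox2 and Pou5f1 was not itself tested.

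Nanog, the homeobox factor that completes this core, was listed at signals of 0.154 to 0.609 in wild type and 0.124 to 0.696 in depleted oocytes on its only probe set (1429388_at). No array of either group was above background, so the array gave no fold change for it. A transcript at this level was not detectable here.

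Klf4 was measured by 2 probe sets that gave nearly the same value and were both above background everywhere. On the brighter one (1417394_at) wild type replicates 1 to 5 read 241, 186, 212, 196 and 180.5, and depleted replicates 239, 215, 249, 252 and 222. Wild type replicate 1 lay among the depleted arrays, and the other 4 wild type arrays lay below all of them. The log2 fold change was 0.21 ± 0.09 (SE), with a 95% interval of 1.02-fold to 1.32-fold before adjustment, and the probe set was not called (limma, Benjamini-Hochberg adjusted p = 0.124). It passed when each array was centred on its median (0.30, adjusted p = 0.0294) and without wild type replicate 1 (0.28, adjusted p = 0.0383), and over all alternatives its adjusted p ran from 0.0294 to 0.265. The dimmer one (1417395_at) went from 109 ± 13.9 (SD, n = 5) to 127 ± 12.1, a log2 fold change of 0.21 ± 0.10 (adjusted p = 0.205). On it, 4 depleted arrays read between 119.6 and 123 and depleted replicate 3 read 148.

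Klf5, a relative of Klf4 that acts in both early lineages, was near background on its 3 probe sets. The brightest (1451021_a_at) read 10.8, 10.7, 9.31, 5.70 and 8.49 in wild type replicates 1 to 5, of which 4 were above background, and 7.67, 3.00, 8.78, 2.55 and 8.35 in depleted replicates, of which 1 was. The groups overlapped, and the log2 fold change was -0.49 ± 0.29 (SE; limma, Benjamini-Hochberg adjusted p = 0.325). The next (1451739_at) had 1 array above background in each group and a log2 fold change of -0.18 ± 0.27 (adjusted p = 0.738), and the value turned positive, at 0.0059, without depleted replicate 1. The dimmest (1430255_at) was above background on no array and was not tested.

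**Figure D2:**
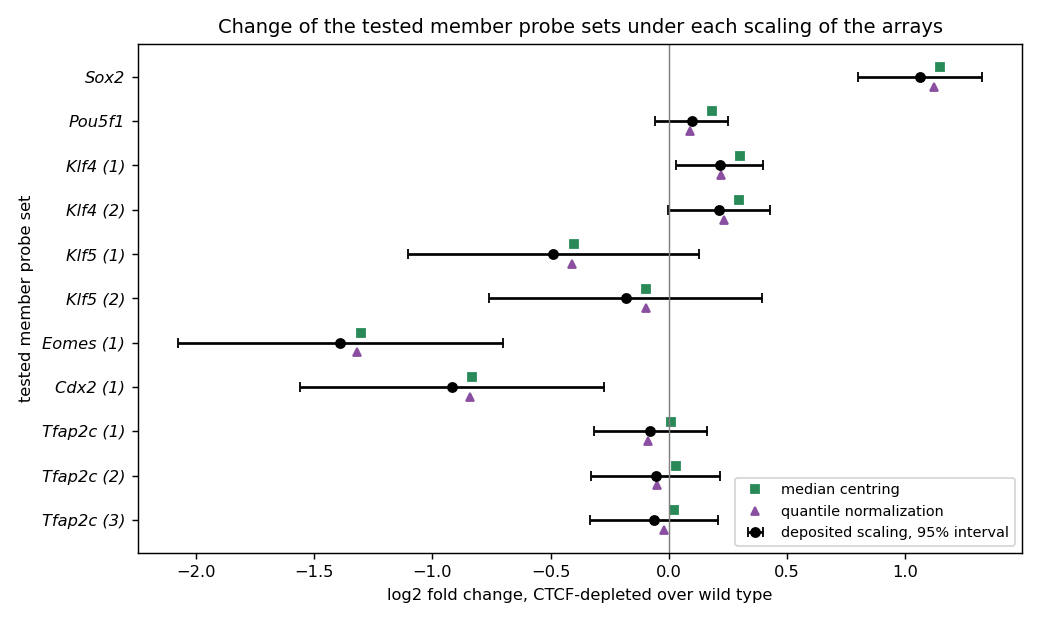
Log2 fold change (CTCF-depleted over wild type, 5 arrays each) of the 11 tested member probe sets, with the 95% interval from limma for the deposited scaling (black) and the values after median centring (squares) and quantile normalization (triangles). Sox2 lies at 1.06 and Eomes at -1.39, and for the 3 Tfap2c probe sets the sign turns under median centring.

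Among the trophectoderm factors, Eomes, a T-box factor of trophoblast stem cells, was the one called. Its brighter probe set (1435172_at) read 12.4, 13.2, 15.3, 9.74 and 17.7 in wild type replicates 1 to 5 and 6.77, 0.661, 1.54, 4.56 and 7.66 in depleted replicates. Every wild type array was above its background and above every depleted array, whereas only depleted replicate 5 was above background. Groups that do not overlap, with the depleted group lower, were seen in 6.38% of all tested probe sets. The mean fell from 13.7 ± 3.01 (SD, n = 5) to 4.24 ± 3.09, and the fitted log2 fold change was -1.39 ± 0.32 (SE; limma, Benjamini-Hochberg adjusted p = 0.00849). The depleted mean alone was under the filter's signal of about 5.13, so the probe set was tested only because of its wild type signal. With no filter on low signal its adjusted p was 0.0207 (limma, Benjamini-Hochberg). With 4 of the 5 depleted arrays at or under background, the fitted value is no exact fold and moves with the offset: it was -1.73 with an offset of 1 and -0.56 with an offset of 16. With the ratio of 3-prime to 5-prime signal in the model it was -1.15 (adjusted p = 0.0491), the highest adjusted p over its alternatives, and without wild type replicate 2 it was -1.39. The other Eomes probe set (1426001_at) was above background on no array, at 0.663 to 1.73 in wild type and 0.335 to 1.19 in depleted oocytes, and does not bear on the difference.

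Cdx2, the caudal-type homeobox factor that marks the trophectoderm, had lower signals in depleted oocytes on its brighter probe set (1422075_at) but was not called. It read 10.6, 4.10, 12.6, 9.95 and 8.58 in wild type replicates 1 to 5, with 4 arrays above background, and 1.19, 3.11, 5.00, 3.75 and 5.24 in depleted replicates, with 1 above it. Only wild type replicate 2 lay among the depleted arrays. The log2 fold change was -0.92 ± 0.30 (SE; limma, Benjamini-Hochberg adjusted p = 0.0587). Without wild type replicate 2 it was -1.11 and passed (adjusted p = 0.0237), as it did with an offset of 16 (-0.35, adjusted p = 0.0488), and over its alternatives the adjusted p ran from 0.0237 to 0.151. The depleted mean alone, 3.66, was under the filter's signal of about 5.13, so this probe set was tested only because of its wild type signal. The other Cdx2 probe set (1422074_at) was above background on no array and was not tested.

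Tfap2c was bright on each of its 3 probe sets, and none of them was called. The brightest (1436392_s_at, a design that can match several transcripts) read 885, 702, 908, 763 and 1019 in wild type replicates 1 to 5 and 824, 591, 941, 839 and 869 in depleted replicates. Depleted replicate 2 was the lowest array on it, and the groups otherwise shared 1 range. Its log2 fold change was -0.078 ± 0.11 (SE; limma, Benjamini-Hochberg adjusted p = 0.729), with a 95% interval of 0.802-fold to 1.12-fold. The next (1418147_at) went from 214 ± 16.4 (SD, n = 5) to 210.1 ± 48.0, a log2 fold change of -0.056, and the dimmest (1448977_at) from 64.1 ± 9.91 to 61.2 ± 9.35, or -0.064. The signs have no weight, since under median centring the values were 0.0077, 0.030 and 0.022.

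Tead4, which encodes the DNA-binding partner of YAP1, had 2 probe sets that fell under the filter. On the brighter (1426337_a_at) wild type replicates 1 to 5 read 2.87, 2.05, 1.39, 3.05 and 8.21, none above background, and depleted replicates read 6.56, 6.59, 3.51, 7.14 and 6.0, of which replicates 4 and 5 were above it. On the other (1460683_at) only depleted replicate 4, at 7.31, was above background, and wild type arrays lay between 0.962 and 2.52. Depleted means were higher on both, the groups overlapped on both, and no change can be stated at this level. Without the filter on low signal, none of the 6 untested member probe sets passed, with adjusted p from 0.221 to 0.930.

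**Figure D3:**
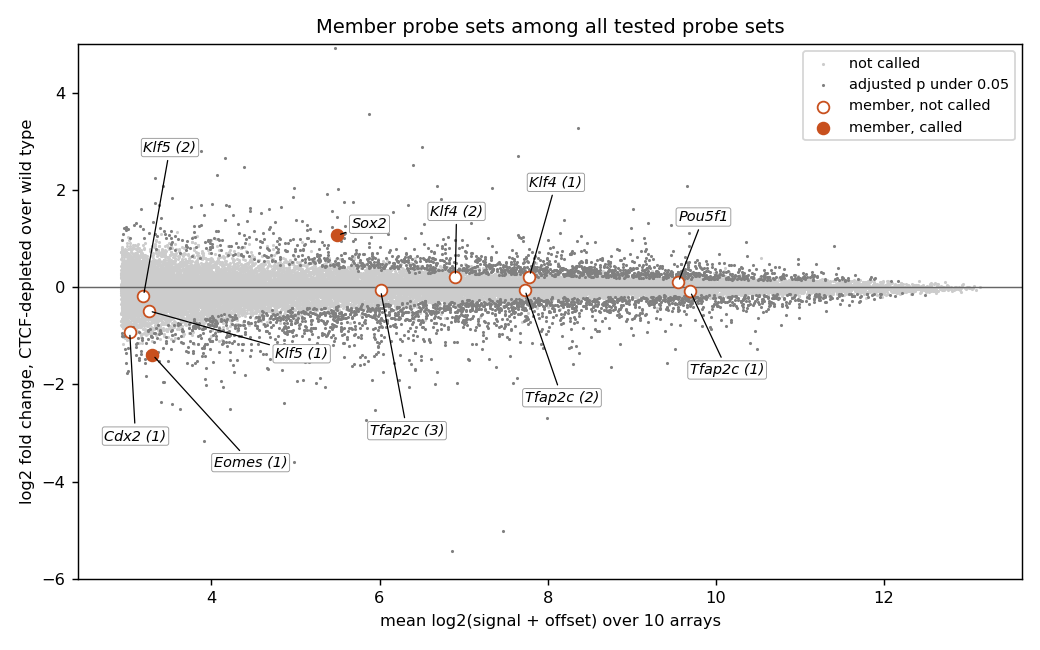
Log2 fold change (CTCF-depleted over wild type) against the mean log2(signal + offset) over the 10 arrays for all 27022 tested probe sets; darker points have an adjusted p under 0.05, and circles are the 11 tested member probe sets, filled where called. Sox2 and Eomes lie outside the pale cloud of probe sets that were not called, and Pou5f1 and Tfap2c (1), the brightest members, lie near 0.

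The other genes of the pluripotency network moved both ways. Of 29 tested, 4 rose and 3 fell, against 7.26% higher and 9.12% lower among all 13811 tested genes, in which each gene is its brightest probe set. The median log2 fold change was 0.0041, and over all genes it was -0.017. Fbxo15, an F-box gene expressed in embryonic stem cells, rose 1.93-fold from 148 ± 17.1 (SD, n = 5) to 288 ± 27.9 (limma, Benjamini-Hochberg adjusted p = 2.23e-06). Zfp42, which encodes the stem cell marker REX1, rose 1.98-fold from 12.8 ± 2.57 to 28.2 ± 7.14, Dppa5a 1.20-fold and the nuclear receptor gene Nr5a2 by a log2 fold change of 0.31. Dppa4, a chromatin-associated gene of pluripotent cells, fell 1.44-fold from 192 ± 14.1 to 134 ± 19.5, and the T-box gene Tbx3 (-0.72) and Stat3 (-0.23), which carries the LIF signal, fell as well. The count of falls was 2 under median centring and 1 with the ratio of 3-prime to 5-prime signal in the model, and with single arrays left out it ran from 1 to 4 and that of rises stayed at 4. Esrrb (0.16), Sall4 (0.0041), Lin28a (-0.072) and Dppa3 (-0.017), the last a maternal gene, were not called, and 5 genes of the list, among them Tfcp2l1 and Otx2, were above background on no array.

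Of 31 tested trophectoderm and Hippo pathway genes, 3 rose and 4 fell, with a median log2 fold change of -0.048. That is 22.6% called, where 16.4% of all tested genes were called, 7.26% higher and 9.12% lower. Fgfr2, the FGF receptor of the trophectoderm, rose 1.49-fold from 237 ± 21.5 (SD, n = 5) to 355 ± 14.2, but its other 2 probe sets gave values from -0.36 to 0.45. Tfap2a, the AP-2 alpha paralog of Tfap2c, rose 1.61-fold from 82.4 ± 8.75 to 135 ± 20.1, and Gata3, a trophectoderm factor acting beside Cdx2, had a log2 fold change of 0.34. The falls were Ets2 (1.29-fold), Wwtr1 (1.42-fold), which encodes the YAP1 relative TAZ, Tead3 (1.37-fold) and the placental gene Plac1 (log2 fold change -0.62). Wwtr1 went from 92.0 ± 7.60 to 63.9 ± 7.14, and its other 2 probe sets also gave negative values. Yap1 was bright in both groups, 6182 and 6093, with a log2 fold change of -0.019 that was not called, and the TEAD4 paralogs Tead1 (0.41) and Tead2 (-0.49) were not called. The counts were 5 up and 4 down when arrays were centred on their medians, and 2 to 5 up and 4 to 5 down when 1 array was omitted. Of 12 primitive endoderm genes, the third lineage of the blastocyst, 1 rose and 1 fell: Gata4 from 157 ± 9.76 to 247 ± 15.1, and Dab2, an endocytic adaptor, 1.31-fold from 1886 ± 49.7 to 1444 ± 65.3. At 16.7% called these genes were near the share of all genes, and their median log2 fold change was -0.13.

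Among paralogs of the members, called genes were found in every family list but the Pou list. Of 14 Sox genes tested, 2 rose and 0 fell, which at 14.3% called is near the 16.4% of all tested genes and no result about the family: Sox15, from 70.4 ± 7.33 (SD, n = 5) to 108 ± 19.0, and Sox13, from 28.6 ± 3.83 to 47.0 ± 6.78, and the same 2 counts were found under both other scalings and with each array left out (limma, Benjamini-Hochberg adjusted p = 0.00301 and 0.00414). The median of the 14 was 0.015. Of 17 Klf and Sp genes, 2 rose and 4 fell (35.3% called) with a median of -0.19. The Wnt-responsive gene Sp5 rose from 5.31 ± 3.09, with 1 wild type array above background, to 42.6 ± 5.01, and Klf10 had a log2 fold change of 0.31 (adjusted p = 0.0498). On the log2 scale that the filter used, the Sp5 wild type mean alone was under the cut of about 5.13 in signal. Sp5 was therefore tested only because of its depleted signal, although it counts as 1 of the 2 rises. The falls of Klf7, Klf11, Klf13 and Klf17, the last an oocyte-expressed gene, had log2 fold changes of -0.31, -0.26, -0.24 and -0.14, and under median centring 0 of the 17 were called lower. The other 3 tested Klf7 probe sets gave values from -0.46 to 0.43. Klf17 was called in only 4 and Klf11 in 8 of the 10 fits that left out an array. Of 5 Pou genes none was called, the brightest being Pou4f1 (0.094) and Pou2f2 (-0.15), and their median was -0.15. Of 11 T-box, Cdx, Tead and AP-2 paralogs, 1 rose and 3 fell (36.4% called), with a median of -0.25: beside Tfap2a, Tead3 and Tbx3, Tfap2b fell 1.83-fold from 45.2 ± 5.47 to 24.2 ± 6.16. Tfap2a, Tead3 and Tbx3 are the same calls already counted in the lists above. Under median centring 3 of these paralogs rose and 3 fell. With the ratio of 3-prime to 5-prime signal in the model, 2 rose and 2 fell. For the oocyte markers the counts were 0 higher and 1 lower of 15, with a median of -0.015, the one being Gpr3 (-0.18), which was called in only 2 of the 10 fits that left out an array and not under median centring. The control gene Actb had a log2 fold change of 0.034, and Gapdh 0.44 on a dim probe set, and neither was called.

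**Figure D4:**
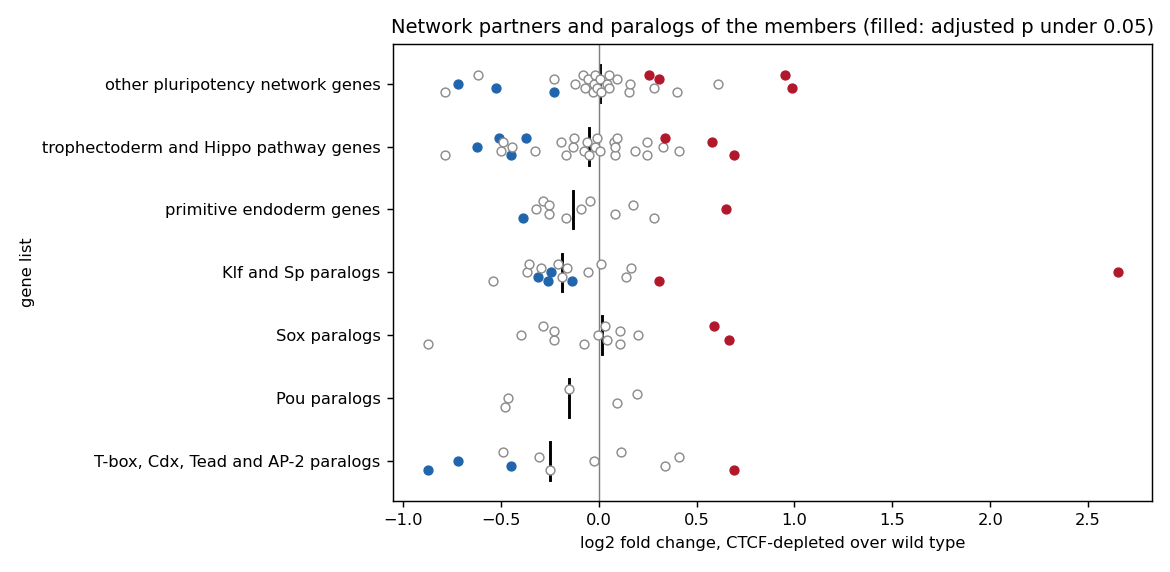
Log2 fold change (CTCF-depleted over wild type) of each tested gene in 7 lists of network partners and paralogs, with 1 point per gene, the list's median as a black bar, and filled points for genes with an adjusted p under 0.05 (red higher, blue lower). Called genes lie on both sides of 0 in 5 lists, only to the right in the Sox list (Sox13 and Sox15), and there are 0 in the Pou list.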

How the data were processed

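Per the labels' protocols, biotinylated targets were prepared from total RNA with a method for small samples, 1 array per sample. The authors deposited 1 linear intensity (signal) for each probe set on each array. Per the submitters' processing notes it is a MAS5 value; version, settings and detection calls are not given in the sources used here. The trimmed mean (lowest and highest 2% removed) of the deposited values was 150.001 on every array, so the arrays had been scaled to an equal mean.

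Groups (5 wild type, 5 CTCF-depleted) and replicate numbers came from the titles. Symbols came from the platform annotation: 34945 probe sets had 1 symbol, 932 several and 9160 none. By gene ID, 34741 of those with 1 symbol were found in RefSeq (GRCm38.p6), and 0 symbols changed. The 64 control probe sets were left out. Signals were taken as log2(signal + 2.47), with the 25th percentile of the values as offset, so changes at low signal are understated. A filter at the 40th percentile of the mean (about 5.13 in signal) kept 27022 probe sets. Groups were compared with limma 3.58.1 in R 4.3.3 (lmFit, eBayes with an intensity trend) and Benjamini-Hochberg adjustment across the tested table. No set test was run. The precision is limited by the number of arrays.

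Deviations of same-numbered arrays of the groups were almost uncorrelated (r from -0.0030 to 0.024), so the replicate number was not in the main model. Alternatives were other offsets, filters, scalings, variance models and thresholds, a block for the replicate number, array weights, the ratio of 3-prime to 5-prime signal (mean over the Actb and Gapdh controls, log2) as a covariate, other background levels and leaving out each array. In simulated data of 27022 probe sets, drawn as independent normal values, 46 of 100 changed by a log2 of 0.5 and 79 of 100 changed by 1 were recovered, with 6 false calls of 131. No other probe sets were changed there, a far smaller share than the 12.6% called in the real data. These rates therefore do not carry over to the real comparison.

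Named genes were all member probe sets, Ctcf, Actb, Gapdh, up to 4 called genes a list, by smallest adjusted p, (the brightest 2 where none was called), and the 3 genes most correlated with each bright member. Nr5a2, Tbx3, Stat3, Tead3, Gata3, Plac1, Klf10 and Klf13, where a list's counts were spelled out in full, and genes given as not called were picked with their values in view. The members, lists and background level were chosen with earlier results of these data known. Sequences are from RefSeq.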

Additional observations from a re-analysis of the deposited data

Results flagged for a closer look

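In 4 of the 34 groups of 5 arrays examined (17 probe sets in both groups), 1 array lay far from the other 4, its gap to the nearest being more than 0.71 of the group's range. For normally distributed values, chance gives about 1 in 20 such groups, or 1.7 of 34. The rule was applied to linear signals, for which that distribution was not checked, so 1.7 is only a rough guide. On the dimmer Klf4 probe set, depleted replicate 3 read 148 against 119.6 to 123 on the other depleted arrays. The other cases were at or under background. On the Tead4 probe set 1426337_a_at, wild type replicate 5 read 8.21 against 1.39 to 3.05. On the dimmest Klf5 probe set, wild type replicate 4 read 6.16 against 1.30 to 2.45. For Nanog, depleted replicate 2 read 0.696 against 0.124 to 0.272.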

How the results depend on the processing

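Over the alternatives run, Sox2 stayed called in the same direction in 21 of 21 (log2 fold change 0.81 to 1.15) and Eomes in 20 of 20 (-1.73 to -0.56), Eomes having no value with a filter at the 60th percentile, which removed it. With that filter 1 member probe set was called in all and 0 lower. With an offset of 16, 2 members were called lower, Cdx2 being the added one at -0.35, and with median centring 2 were called higher, Klf4 being added at 0.30. Leaving out single arrays gave 2 to 3 called members, 1 to 2 higher (2 without wild type replicate 1) and 1 to 2 lower (2 without wild type replicate 2), and 2743 to 3314 called probe sets in all, where all arrays gave 3406. At an adjusted p under 0.01, 1821 were called. The Tfap2c sign turned under median centring (0.0077, 0.030 and 0.022 from the brightest to the dimmest probe set), with the 3-prime to 5-prime covariate (0.11 and 0.077 on the brighter 2), without depleted replicate 2 (0.032 and 0.072 on them) and without wild type replicate 1 (0.019 on the dimmest), and the Klf5 sign on 1451739_at without depleted replicate 1 (0.0059). With single arrays left out, the values ran from -0.28 to 0.0059 on that Klf5 probe set and from -0.15 to 0.032, -0.14 to 0.072 and -0.14 to 0.019 on the Tfap2c probe sets. The causes of these changes were not tested. Of all called probe sets, 56.5% were lower on the deposited scaling, 52.0% under quantile normalization and 33.3% under median centring. With the replicate number as a block, 2 members and 3581 probe sets were called, and it changed no member's call. The correlation of deviations between same-numbered arrays ran from -0.0030 to 0.024. Wild type replicates 1 and 2 matched other numbers best, and replicates 3, 4 and 5 matched their own, so a weak pairing is not excluded. The number of member probe sets above background on all arrays was 7 with either other background level. Signals near background limit Cdx2, Klf5, Eomes, Tead4 and Nanog.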

Other observations

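The genes whose log2 signals over the 10 arrays were most like those of a member, by Pearson's r among the brightest probe sets of all tested genes, are given as a description. This likeness includes any difference between the groups, which share each array's scaling. For Sox2 they were Cd9 (r = 0.985), a tetraspanin of the egg surface needed for sperm fusion, Tnfrsf21 (0.981) and Wrnip1 (0.979). All 3 were themselves called higher: Cd9 went from 277 ± 12.9 (SD, n = 5) to 394 ± 20.5, Tnfrsf21 from 70.4 ± 7.67 to 123 ± 7.49 and Wrnip1 from 397 ± 25.6 to 806 ± 58.2. They were picked for likeness to Sox2, which differed between the groups, so their calls are no separate result. For Pou5f1 they were Snx22 (0.956), Mtln (0.917) and Garnl3 (0.905), for Klf4 Rnf41 (0.936), Cmpk2 (0.919) and Ifit1bl2 (0.914), and for Tfap2c Gm16982 (0.963), Park7 (0.949) and Atp13a3 (0.931), and none of these 9 was called. Gm16982 was near background, with means of 8.83 in wild type and 7.44 in depleted oocytes.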
